A study of Caenorhabditis elegans with 24 samples.

Results

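The high-numbered microRNAs (miRNAs) of Caenorhabditis elegans, those with a number of 1000 or above in their name, were followed through embryogenesis. They were chosen by the number alone and made up 200 of the 434 rows of the count table. Each row is a mature arm, the 5p or 3p strand of a hairpin, or the single arm where the table gives no suffix. The 200 rows belonged to 115 hairpins. A row that is called had an adjusted p under 0.05 in the named test.

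The 8 groups were N2 wild-type embryos, with no mutation or agent in any group, timed from the 4-cell stage. The early groups were 60, 120, 180 and 225 min old by this count, and the late ones 270, 330, 410 and 500 min. Embryos were cut out of adults and collected by mouth pipette, 50 to a sample, and each stage had 3 libraries. Nothing in the labels ties the 3 libraries of a stage to separate cultures, so p-values measure only the spread between these samples, which may be technical. Each sample pooled whole embryos, so for every result on a level below, a change in the number of cells of a type and a change in RNA per cell cannot be told apart.

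A miRNA is cut from a folded transcript by Drosha with its partner Pasha and then by Dicer, and 1 arm of the duplex is usually kept by an Argonaute protein, which it guides to messenger RNAs. Numbers are given to miRNAs in order of registration, so the low numbers include the first and most abundant families, and many high numbers were added from deep sequencing. Some of these hairpins are mirtrons, short introns whose ends are the ends of the hairpin, so that splicing takes the place of the cut by Drosha.

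Total counts ran from 88482 to 1594151 per library, so 1 read was worth between 0.795 and 11.2 CPM, the level used here: counts scaled to a common library size, with the TMM factors of edgeR as a correction for differences in library make-up. The 60 min libraries were among the coarsest, at 4.78 to 11.2 CPM per read. Replicate 3 at 60 min stood apart from the other 23 libraries on the third principal component of the tested rows, which held 5.93% of the variance, with a score of 18.0 against -9.08 to 3.12. Results that change without it are given with the value without it. As a check of the labels, the mir-35 family, abundant in early embryos, held 0.0346% to 0.0698% of counts at 500 min, against 4.68% to 5.29% at 60 min. The heterochronic miRNAs let-7, lin-4, mir-48, mir-84, mir-241 and mir-237, which act mainly in larvae, held at most 0.0666% of counts in any library. That highest value was in a 60 min library, while the 500 min libraries ran from 0.00286% to 0.0240%.

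Reads were found for 122 of the 200 high-numbered rows (61.0%), against 175 of the 234 other rows (74.8%). Together the high-numbered rows held 20377 of 9908958 counts, or 0.206%. They reached 10 reads over the 24 libraries in 68 cases and 100 reads in 27 cases (13.5%), against 103 of the other rows with 100 reads (44.0%). Among rows with any read the median was 12.5 reads for the high-numbered rows and 264 for the others. The most abundant, miR-5546-3p, had 2983 reads, and the most abundant row of the table, miR-57-3p, had 1865083. The other 78 rows had no read, which allows each a share of up to 3.03e-05% of all counts. Such limits cover counting error only, since PCR copies are not independent molecules.

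The reads were held by few rows. The 6 leading arms had 57.6% of the high-numbered reads, the 10 leading arms had 73.5%, and the 27 with 100 or more had 92.7%. Of the remainder, 95 rows with 1 to 99 reads shared 1482 reads, and 37 rows had reads in 1 library only. By contrast, miR-2209a-3p, miR-8196a-3p and miR-4816-3p had reads in all 24 libraries.

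The names fell into 5 blocks of numbers, and each block had detected and undetected rows. In the block that starts at 1000, 18 of 36 rows had reads, led by miR-1018. In the block from 2000 it was 27 of 40, with 2410 of the 3046 reads in miR-2209a-3p, and in the block from 4000 it was 33 of 42, led by miR-4816-3p. The block from 5000 had reads in 13 of 26 rows, and 2983 of its 3240 reads were those of miR-5546-3p. The block from 8000 held 31 detected rows of 56 and the most reads, 5548, led by miR-8196a-3p with 1830.

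**Figure D1:**
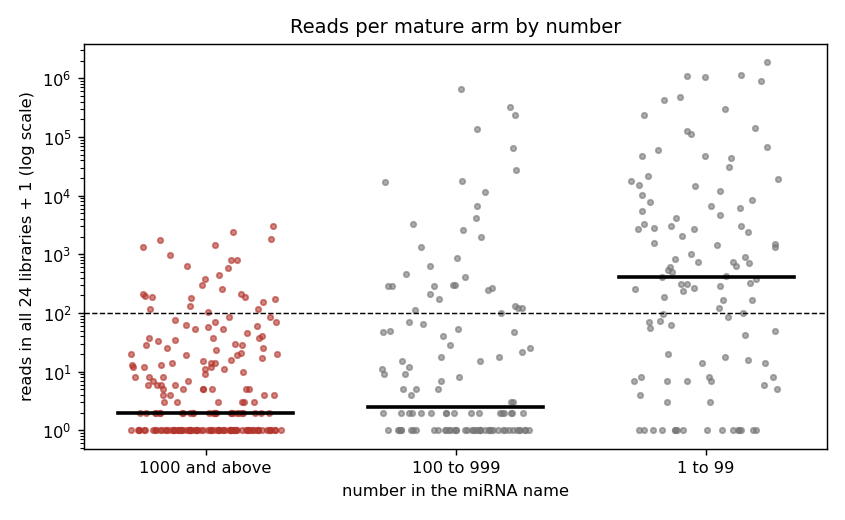
Reads per mature arm over the 24 libraries (log scale, 1 added), for arms numbered 1000 and above, from 100 up to 1000, and 1 to 99; each point is 1 row, the bar is the median and the dashed line marks 100 reads. The rows numbered 1000 and above end at 2983 reads, while those numbered 1 to 99 reach 1865083.

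The threshold of 100 reads divided rows of similar depth. Just inside it lay miR-4807 with 117 reads, miR-4809-3p with 116 and miR-8203-3p with 105. Just outside lay miR-1832b-3p with 85, miR-2208b-5p with 83 and miR-1828 with 74.

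The share of counts held by the high-numbered rows was higher on average from 120 to 270 min than before or after, and lowest at the end. The 60 min libraries averaged 0.210% ± 0.0128 of counts, the 120 min libraries 0.252% ± 0.0217, the 180 min libraries 0.267% ± 0.0180 and the 225 min libraries 0.260% ± 0.0253 (SD, n = 3 at each stage). Later, the 270 min libraries averaged 0.264% ± 0.0937, the 330 min libraries 0.195% ± 0.0122, the 410 min libraries 0.171% ± 0.0224 and the 500 min libraries 0.129% ± 0.0227. As shares of unscaled counts, all 3 libraries at 500 min, at 0.111% to 0.155%, lay below all 3 at 60 min, at 0.197% to 0.222%. Replicate 2 held 0.155% at 500 min with a TMM factor of 0.652, and 0.197% at 60 min with a factor of 0.987. Divided by these factors, the 2 stages overlapped. The spread was widest at 270 min, where replicate 2 held 0.368% and replicates 1 and 3 held 0.187% and 0.237%. No test was made of this sum, since the rows were chosen with earlier results of these data known.

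The choice of total changed the shape of this course, though 500 min stayed lowest over both totals, neither of them scaled by the TMM factors. Those factors were 0.705, 0.652 and 0.665 at 500 min and 1.04, 1.35 and 0.973 at 330 min. Divided by them, the share had its highest mean at 60 min and its lowest at 330 min. The 5 most abundant rows (miR-57-3p, miR-72-5p, miR-64-5p, miR-82-3p and miR-65-5p) are all other rows, and with them taken out of the total the share averaged 0.533% for 60 min, 0.517% for 120 min, 0.773% for 270 min, 0.607% for 330 min and 0.286% for 500 min. The highest mean then fell at 270 min in place of 180 min, the mean for 120 min lay below that for 60 min, and the mean for 330 min lay above both. With miR-5546-3p taken out of the sum, the 60 min libraries averaged 0.197% ± 0.0165 and the 120 min libraries 0.195% ± 0.0220 of counts (SD, n = 3 each), a difference within the spread between libraries.

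The number of high-numbered rows with a read ran from 18 to 50 per library, at unequal depths. Set to the depth of the smallest library, 88482 counts, the expected number was 20.6 ± 4.27 rows for 60 min, 29.6 ± 2.78 rows for 270 min and 22.5 ± 4.39 rows for 500 min (SD, n = 3 each). The libraries of 270 min, at 27.7 to 32.8 rows, lay above those of 60 min, at 18.0 to 25.5. At 500 min the 3 values overlapped those of 60 min. The other rows of the table also had more detected rows at 270 min, 91.4 ± 2.03, against 72.8 ± 8.60 at 60 min (SD, n = 3 each).

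**Figure D2:**
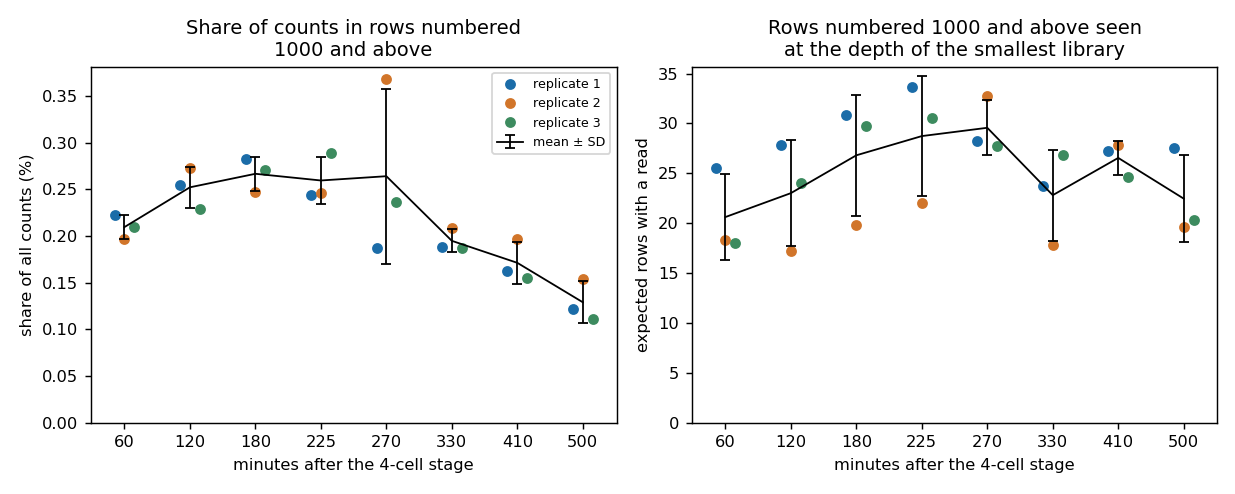
Left, share of all counts in rows numbered 1000 and above (percent); right, expected number of such rows with a read at 88482 counts. Points are the 3 libraries of each stage by minutes after the 4-cell stage, and the black line and bars are mean ± SD. The share, taken of counts not scaled by TMM factors, lies below that at 60 min in every library of 500 min, while the number of rows overlaps.

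The leading arm changed over time. It was miR-2209a-3p in all 3 libraries at 60 min, with 32.5% to 42.6% of their high-numbered reads, and miR-5546-3p in all 3 at 120 min. At 180 min miR-8199-5p led replicate 2 and tied with miR-5546-3p in replicate 1, at 161 reads each, while miR-2209a-3p led replicate 3. At 500 min miR-1018 led all 3 libraries, with 14.9% to 18.1%.

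Positions were taken by hairpin name from the Ensembl 115 annotation of the WBcel235 assembly, which gave 110 of the 115 hairpins. The build behind the counts is not given in the sources used here. Of the 110, 18 filled an intron from end to end on the sense strand, the geometry of a mirtron, against 1 of 127 matched hairpins with other names, mir-62. A further 31 lay inside a sense intron, 4 in a sense exon, 11 in an antisense intron, 2 in an antisense exon and 44 outside protein-coding genes.

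Antisense positions held few reads. The 21 arms of hairpins antisense to an exon or intron had 9 and 111 reads in the 2 classes, and no arm of either reached 100. Arms of hairpins outside protein-coding genes had 7611 reads, those in sense introns 7654, and those that fill an intron 4051. Whether the counting used strand is not given in the sources used here.

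Of the 27 arms with 100 reads, 23 passed the filter on low counts, as did miR-2208b-5p with 83 reads and miR-4937 with 37, so 25 high-numbered arms were tested among 128. The 4 not tested were miR-8192-5p, miR-4923b, miR-4809-3p and miR-8203-3p. Levels differed among the 8 stages for 9 of the 25 (36.0%), while 68.0% of all tested rows were called (edgeR quasi-likelihood F-test, Benjamini-Hochberg adjustment over 128 rows). The high-numbered rows tested were also shallower, with a median of 378 reads against 2429 for the other tested rows, and the part of depth in this gap was not tested.

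The 9 called arms were miR-1022-3p, miR-1820-5p, miR-1822-5p, miR-2209a-3p, miR-4813-5p, miR-4816-3p, miR-4937, miR-8199-3p and miR-8199-5p. Of these, miR-1022-3p, miR-1822-5p, miR-2209a-3p and miR-8199-5p were called in each of the 29 other fits tried, which changed the scaling, the tool, the filter or the block, or left out 1 library. Each of the other 5 lost its call in at least 2 of them.

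At 500 min against 60 min, 7 of the 25 arms were called, 2 higher and 5 lower, while 62.5% of all tested rows were called, 34.4% higher and 28.1% lower (edgeR, same fit). At 270 min against 60 min it was 3, with 2 higher and 1 lower, beside 40.6% of all rows, 19.5% higher and 21.1% lower. At 500 min against 270 min it was 3, with 1 higher and 2 lower, beside 30.5% of all rows, 15.6% higher and 14.8% lower. These contrasts share libraries, so their counts are not independent.

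The median log2 fold change of the 25 arms was -0.12 at 500 min against 60 min, where that of all 128 rows was 0.30. It was 0.38 at 270 min against 60 min, equal to that of all rows, and -0.67 at 500 min against 270 min, where that of all rows was 0.01. These medians move with the scaling. With DESeq2 size factors the first was 0.49 against 0.59 for all rows, and with total counts it was 0.06 against 0.08. With total counts the second was 1.21, as for all rows, and the third was -1.49, where that of all rows was -0.74.

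The split of calls moved with that of the whole table. At 500 min against 60 min, DESeq2 size factors gave 3 arms higher and 4 lower, and 47 higher and 28 lower over all rows, in place of 44 and 36. With total counts 5 arms were higher and 1 lower at 270 min against 60 min, and 38 higher and 23 lower over all rows, in place of 25 and 27. Total counts also gave 1 arm higher and 3 lower at 500 min against 270 min, and 16 higher and 29 lower over all rows, in place of 20 and 19. Without replicate 2 or replicate 3 at 500 min, 4 arms were called at 500 min against 60 min, and without replicate 1 or 2 at 60 min, 5 were called at 270 min against 60 min.

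The most abundant high-numbered arm at the start was miR-2209a-3p, and it fell steeply. Its hairpin lies on the plus strand at IV:1027101-1027164, outside protein-coding genes. Within 10000 bases of it are mir-2208b at IV:1026580-1026640, mir-2209c at IV:1027218-1027281 and mir-2208a at IV:1021772-1021832, all on the same strand, and mir-2209b at IV:1021303-1021365 on the minus strand. Its level was 56.2, 146 and 124 CPM at 500 min, against 1046, 848 and 1318 CPM at 60 min. The 2 stages did not overlap.

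For miR-2209a-3p the log2 fold change at 500 min against 60 min was -3.32 ± 0.75 (SE, edgeR adjusted p = 0.000345). At 270 min it already stood at 164 ± 97.9 CPM, against 1071 ± 236 CPM at 60 min (SD, n = 3 each), with -2.70 ± 0.72 as its log2 change (SE, edgeR adjusted p = 0.00302). In between it averaged 383 ± 245 CPM at 120 min, 427 ± 139 CPM at 180 min and 180 ± 30.4 CPM at 225 min. All 2410 reads of the hairpin came from the 3p arm.

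Arms that share a number and differ by a letter are close in sequence, and reads could be split between them. Summed over miR-2209a-3p, miR-2209b-3p and miR-2209c-3p the level was 121 ± 42.7 CPM at 500 min, against 1083 ± 257 CPM at 60 min (SD, n = 3 each). The sum follows miR-2209a-3p, which held 2410 of its 2502 reads. The neighbour miR-2208b-5p had 83 reads, all at 330 min or before, and did not differ among the stages past the threshold (edgeR adjusted p = 0.155).

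A peak in the middle of the series was shown by miR-8199-5p. The hairpin mir-8199 lies on the minus strand at II:2136822-2136909, outside protein-coding genes. The 3 libraries had 56.2, 20.4 and 0 CPM at 60 min, 304, 140 and 77.3 CPM at 120 min, and 658, 330 and 225 CPM at 180 min. They then averaged 191 ± 30.1 CPM at 225 min, 88.9 ± 72.1 CPM at 270 min, 45.0 ± 21.8 CPM at 330 min and 16.9 ± 11.7 CPM at 410 min (SD, n = 3 each). At 500 min no read was found in any of the 3 libraries.

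The difference of miR-8199-5p among the stages had an edgeR adjusted p of 2.35e-05. At 500 min it was at least 18.7-fold lower than at 270 min, with 0 against 165 reads and a floor of 3 counts over the 3 libraries of 500 min, and the edgeR adjusted p was 0.000332. Against 60 min it was at least 4.60-fold lower on the same floor, with 0 against 7 reads and an edgeR adjusted p of 0.00561. This bound leaves out the counting error of the 7 reads, and 60 min replicate 3 also had 0 reads. That second call rested on 60 min replicate 1, which held 5 of the 7 reads (edgeR adjusted p without it 0.0523, and 0.00110 to 0.0523 over the 29 alternatives).

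Its partner arm miR-8199-3p had 181 reads against 990 for miR-8199-5p. It had no read at 60 or 120 min and its highest mean, 97.1 ± 61.7 CPM, also at 180 min (SD, n = 3). It was called among the stages (edgeR adjusted p = 0.0246), and was not called when 120 min replicate 3, 180 min replicate 1 or 180 min replicate 2 was left out (0.0529, 0.102 and 0.0650, and 0.0114 to 0.102 over the 29 alternatives). At 500 min 10 reads of mir-8199 were counted, all from the 3p arm, with 1, 0 and 9 in replicates 1, 2 and 3. At 120 min all 156 were from the 5p arm, with 82, 28 and 46.

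From a count of 0 in all 12 libraries up to 225 min, miR-1822-5p appeared at 270 min. Its hairpin lies on the plus strand at II:6015534-6015627, in a sense intron of ZK84.2. Replicates 1, 2 and 3 had 67, 56 and 18 reads at 270 min, 35, 70 and 29 reads at 330 min, 31, 80 and 128 reads at 410 min, and 37, 23 and 0 reads at 500 min. Only 1 of the 12 later libraries, 500 min replicate 3, had none.

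In level, miR-1822-5p averaged 63.4 ± 31.4 CPM at 270 min, 164 ± 119 CPM at 330 min, 153 ± 109 CPM at 410 min and 82.0 ± 79.8 CPM at 500 min (SD, n = 3 each). At 270 min it was at least 8.12-fold higher than the floor of 3 counts over the 60 min libraries (edgeR adjusted p = 0.0127). At 500 min it was at least 10.1-fold higher than that floor (edgeR adjusted p = 0.00669). A count of 0 over 3 libraries allowed up to 7.57 CPM at 60 min, 2.82 CPM at 120 min, 2.38 CPM at 180 min and 3.33 CPM at 225 min.

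The called arm with its highest mean at 500 min was miR-1022-3p. Its hairpin lies on the minus strand at X:6435425-6435512, outside protein-coding genes. It had 107, 56 and 39 reads at 500 min and 21, 9 and 56 at 410 min. Before 410 min reads were found in 60 min replicate 1, with 7, and 270 min replicate 2, with 2, and in none of the other 16 libraries. In CPM, however, 60 min replicate 1 stood at 78.7, above the 44.7, 30.9 and 51.4 of the 410 min libraries.

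At 500 min miR-1022-3p averaged 275 ± 103 CPM, against 1.17 ± 2.03 CPM at 270 min (SD, n = 3 each). The ratio of the pooled levels was 297, with an exact 95% counting interval of 81.1 to 2466 from 202 and 2 reads, and the edgeR adjusted p was 0.00214. Against 60 min the log2 fold change was 3.50 ± 1.56 (SE) and missed the threshold (edgeR adjusted p = 0.0542). Without 60 min replicate 1 it was 9.82 and was called (0.00421, and 0.00421 to 0.192 over the 29 alternatives).

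**Figure D3:**
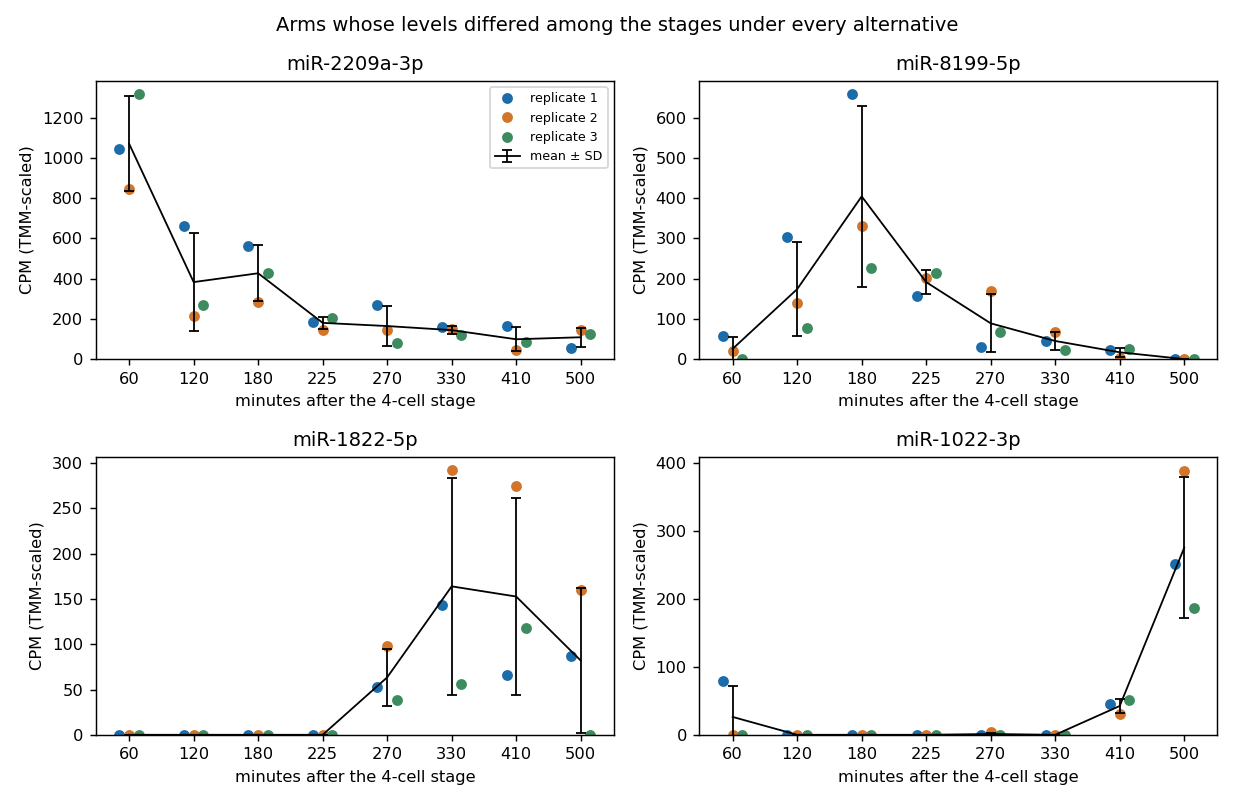
Levels (TMM-scaled CPM) of miR-2209a-3p, miR-8199-5p, miR-1822-5p and miR-1022-3p by minutes after the 4-cell stage; points are libraries, coloured by replicate, and black lines and bars are mean ± SD of 3. The highest means fall at 60 min (1071 CPM), 180 min (404 CPM), 330 min (164 CPM) and 500 min (275 CPM).

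The other 5 called arms kept their call in fewer of the fits. The mirtron-like mir-4816 fills an intron of T09B4.2 on the plus strand at I:6185080-6185144. Its 3p arm had 35.1, 90.1 and 62.0 CPM at 500 min, against 461, 276 and 884 CPM at 60 min. The 2 stages did not overlap, and the log2 fold change was -3.14 ± 0.87 (SE, edgeR adjusted p = 0.00304).

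Between these times miR-4816-3p did not decline evenly. It averaged 118 ± 45.7 CPM at 120 min and 328 ± 149 CPM at 270 min (SD, n = 3 each), and was lower at 500 min than at 270 min with -2.42 ± 0.85 as its log2 change (SE, edgeR adjusted p = 0.0273). Leaving out 270 min replicate 2 or 3, 500 min replicate 1 or 3, or the filter ended this last call (up to 0.131, and 0.00162 to 0.131 over the 29 alternatives). Its difference among the stages (edgeR adjusted p = 0.0122) did not hold when 60 min replicate 3 was left out (0.0716) or with no filter (0.0529), in a range of 0.00166 to 0.0716 over the 29 alternatives.

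The 5p arm of the same hairpin was not called among the stages (edgeR adjusted p = 0.0897), but differed between 2 of them. Over the 3 libraries miR-4816-5p had 32, 47 and 23 reads at 270 min, against 0, 0 and 1 at 60 min. The ratio of the pooled levels was 17.6, with an exact 95% counting interval of 3.09 to 702, and the edgeR adjusted p was 0.0456. The call was lost in 11 of the 29 alternatives, whose adjusted p ran from 0.00660 to 0.107, among them each that left out a 60 min library. Without 60 min replicate 3 the adjusted p was 0.0601 and the log2 fold change 7.41, in place of 4.34. The 5p share of mir-4816, with the 3 libraries pooled, was 0.394% of its reads at 60 min, 34.4% of them at 180 min and 19.6% of them at 500 min. These shares varied between libraries. In replicates 1, 2 and 3 the 5p reads were 9, 15 and 100 at 180 min, beside 74, 10 and 152 from the 3p arm. At 500 min they were 10, 0 and 0, beside 15, 13 and 13.

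Most hairpins gave nearly all reads from 1 arm. Of 20 hairpins with both arms in the table and at least 100 reads, 15 had over 90% of them from 1 arm, 7 from the 5p and 8 from the 3p, and 8 had 1 arm at 0. The most even was mir-1830, with 644 reads from the 5p and 795 from the 3p arm.

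Late stages were the higher ones for miR-4813-5p, from a hairpin at III:4571640-4571716 that lies in a sense exon of idhg-1, a gene for a subunit of isocitrate dehydrogenase. Its 3 libraries had 49.1, 152 and 100 CPM at 500 min, against 33.7, 0 and 4.78 CPM at 60 min. All 3 at 500 min lay above all 3 at 60 min, and the log2 fold change was 3.07 ± 1.29 (SE, edgeR adjusted p = 0.0395). Its highest mean was 171 ± 74.5 CPM at 410 min (SD, n = 3).

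The 500 min call of miR-4813-5p was lost in 7 of the 29 alternatives, among them those without 60 min replicate 2 or 3 (0.123 and 0.117, in a range of 0.00204 to 0.192). That among the stages (edgeR adjusted p = 0.0227) was lost with no filter (0.174) and when 410 min replicate 1 or 3 was left out (0.0616 and 0.0707), in a range of 9.23e-05 to 0.174.

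Most reads of miR-1820-5p came from 1 library. Its hairpin lies at IV:7767461-7767567, outside protein-coding genes. Of its 448 reads, 253 were in 410 min replicate 3, or 56.5%, the highest such share of the 27 arms, whose median was 22.1%. At 60, 120, 180 and 330 min reads were found in replicate 3 and in no other. Its call among the stages (edgeR adjusted p = 0.0152) depended on 410 min replicate 3 (0.0540 without it) and was lost with total counts (0.0849), in a range of 0.00124 to 0.0849.

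The ninth called arm, miR-4937 at IV:1381705-1381814, had 37 reads in 4 libraries, 6 in 60 min replicate 1 and 1, 5 and 25 at 180 min. It passed the filter on low counts only through these libraries, the same ones that make its difference among the stages. Its edgeR adjusted p was 0.0263, and 0.843 with DESeq2. Without 180 min replicate 2 or 3 it was 0.0797 and 0.124, in a range of 0.00323 to 0.843 over the 29 alternatives.

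A pair of arms was lower at 500 min than at 60 min on few reads. In replicates 1, 2 and 3, miR-4936 had 1, 0 and 0 reads at 500 min, against 5, 21 and 0 at 60 min, a ratio of 0.0195 with an exact 95% counting interval of 0.000476 to 0.119 (edgeR adjusted p = 0.0242). For miR-8201-5p, from an intron of hil-2, a linker histone gene, the counts were 3, 0 and 0 at 500 min, against 8, 0 and 50 at 60 min, a ratio of 0.0262 with an interval of 0.00526 to 0.0806 (edgeR adjusted p = 0.0350).

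Both pairs of groups overlapped at 0 reads. The call of miR-4936 ended when 60 min replicate 2 (0.137) or a library of 500 min was left out, in a range of 0.00875 to 0.137. That of miR-8201-5p ended when 60 min replicate 3 (0.127) or 500 min replicate 2 or 3 (0.0966 and 0.0930) was left out and under 3 other settings, in a range of 0.0199 to 0.127. Neither arm was called among the stages (edgeR adjusted p = 0.155 and 0.0583).

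Among the arms not called, the most abundant was miR-5546-3p, from I:2888448-2888557 in a sense intron of arx-1, which encodes a subunit of the actin-nucleating Arp2/3 complex. It had no read in 60 min replicate 3 and reads in the other 23 libraries. Its mean ran from 155 ± 143 CPM at 60 min to 463 ± 245 CPM at 120 min, and was 191 ± 77.3 CPM at 500 min (SD, n = 3 each). The edgeR adjusted p among the stages was 0.616, and 0.0923 to 0.746 over the 29 alternatives.

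Next came miR-8196a-3p with 1830 reads, from X:2329038-2329103, where the noncoding gene linc-154 is annotated. Its mean lay between 75.5 ± 33.7 CPM at 120 min and 269 ± 165 CPM at 270 min (SD, n = 3 each; edgeR adjusted p = 0.620). The hairpin mir-8210 lies at V:14656547-14656612 in an intron of the mitochondrial carrier gene slc-25A29, where the noncoding gene C54G10.5 is also annotated. For miR-8210-5p the means ran from 46.6 ± 76.6 CPM at 60 min to 214 ± 66.3 CPM at 270 min (edgeR adjusted p = 0.560). Without 60 min replicate 1, which held 12 of its 13 reads at that stage, it was called (0.0311, and 0.0311 to 0.754 over the 29 alternatives).

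Most of the remaining tested arms had low levels at every stage, and none of those named next passed the threshold. For miR-1830-3p and miR-1830-5p, in an intron of paic-1, a purine synthesis gene, the edgeR adjusted p was 0.794 and 0.859. It was 0.182 for miR-2219-5p, 0.619 for miR-4805-3p, 0.989 for miR-1821-3p and 0.659 for miR-8191-5p. It was 0.151 for miR-8205-5p, which lies in an intron of the septin gene unc-59 and had no read at 500 min. A p that misses the threshold does not show that the levels were equal.

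The highest stage mean of miR-2219-5p was 99.9 ± 154 CPM at 60 min, where replicate 3 held 58 of the 60 reads (SD, n = 3). That of miR-8191-5p was 35.5 ± 44.9 CPM, also at 60 min. For miR-8205-5p it was 51.1 ± 56.2 CPM and for miR-4805-3p 34.8 ± 8.53 CPM, both at 120 min. The SD exceeded the mean for the first 3 of these arms. Of the late ones, miR-1821-3p was highest at 410 min, with 26.8 ± 11.8 CPM.

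Of the 4 arms with 100 reads that were not tested, miR-8203-3p had no read in the 12 libraries up to 225 min and reads in 10 of the 12 later ones, with means of 9.46 ± 6.29 CPM at 270 min and 18.6 ± 16.1 CPM at 500 min (SD, n = 3 each). For miR-8192-5p, from an intron of flcn-1, the folliculin gene, no read was found at 60 or 120 min and the mean was 51.3 ± 24.8 CPM at 410 min. The other 2 lie in the gene Y59E1B.1. With 33.6 ± 37.3 CPM at 120 min, miR-4809-3p had an SD above its highest mean. For miR-4923b the means were 32.1 ± 3.60 CPM at 410 min and 31.2 ± 6.37 CPM at 500 min, and at most 14.5 CPM earlier. These are descriptions, with no p.

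The highest mean of the 27 arms fell at 60 min for 6, at 120 min for 4, at 180 min for 3, at 270 min for 4, at 330 min for 1, at 410 min for 6 and at 500 min for 3. None had it at 225 min. Among the arms highest at 60 min, the SD exceeded the mean for miR-2219-5p, miR-4936, miR-8191-5p and miR-8201-5p. A library of great depth weighs on these reads but not on CPM, and 410 min replicate 3 was the library with the most reads for 9 of the 27.

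**Figure D4:**
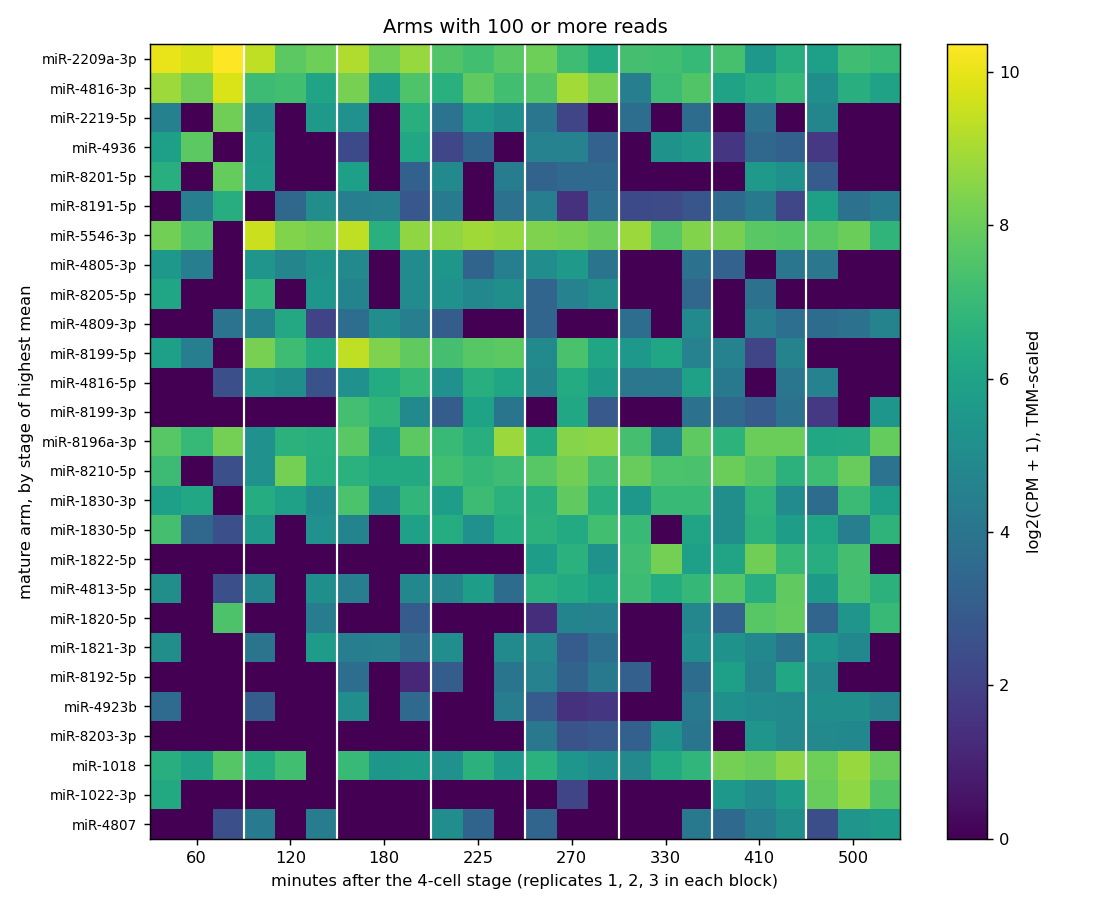
Level of each of the 27 arms with 100 or more reads in each library, as log2(CPM + 1) on TMM-scaled libraries; rows are ordered by the stage of the highest mean, and white lines divide the 8 stages, with replicates 1 to 3 in each. Dark cells are libraries with no read, as for miR-1822-5p in all 12 libraries up to 225 min.

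The mirtron-like hairpins lay mainly in 1 gene. Of the 18 that fill an intron, 11 lie in Y59E1B.1 on the plus strand of chromosome X, a gene annotated as noncoding. They run from mir-4807 at X:1872466-1872526 to mir-4921 at X:1879979-1880038. Reads were found for 10 of the 11, and mir-4925 had none.

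Of the 1898 reads from Y59E1B.1, 1337 belonged to miR-1018, whose hairpin at X:1879458-1879513 is 56 bases long. The next were mir-4923b with 133 reads, mir-4807 with 117 and mir-4809 with 116. The pairs mir-4923a and mir-4923b, and mir-4810a and mir-4810b, may share reads.

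The level of miR-1018 was 267, 430 and 248 CPM at 500 min and 292, 257 and 382 CPM at 410 min. At 270 min it was 97.0, 42.3 and 32.0 CPM, and the stage means from 60 to 330 min lay between 57.1 and 116 CPM (n = 3 each). On the TMM scale every library of 410 and 500 min lay above every earlier library, of which the highest was 60 min replicate 3 with 196 CPM. This order did not hold for the share of unscaled counts. There 120 min replicate 2, with 30 reads in 130301 counts, stood above 500 min replicate 3, with 52 reads in 315090.

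Among the stages miR-1018 was not called (edgeR adjusted p = 0.0558). At 500 min against 270 min its log2 fold change was 2.44 ± 1.00 (SE, edgeR adjusted p = 0.0628). With DESeq2 both passed, at 0.00497 and 0.00852, and over the 29 alternatives the ranges were 0.00497 to 0.315 and 0.00852 to 0.294. Without 120 min replicate 3, the only library with no read of miR-1018, both were called by edgeR (0.00753 and 0.0130), as they were without 60 min replicate 3 (0.0225 and 0.0392). With 1 library left out, the edgeR adjusted p among the stages reached 0.142 at most. The highest value, 0.315, thus came from total counts, no filter or the replicate block. The log2 fold change at 500 min against 270 min was 1.72 to 3.07 over the 29 alternatives.

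The other 14 arms of Y59E1B.1, summed, had 115, 104 and 148 CPM at 500 min, against 35.8, 8.80 and 6.40 CPM at 270 min. These 2 stages did not overlap, but 270 min had the lowest mean of all stages, 17.0 CPM. Among earlier libraries, 120 min replicate 2 had 115 CPM, inside the range of 500 min, and 330 min replicate 3 had 91.1 CPM. At 60 min the sum was 29.9 ± 28.3 CPM, and at 120 min 69.0 ± 43.7 CPM (SD, n = 3 each). No test was made of the sum, and miR-4807, the only one of the 14 tested, was not called (edgeR adjusted p = 0.197).

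The mirtron-like hairpins outside Y59E1B.1 had the opposite order, with 70.2 ± 17.3 CPM at 500 min, against 545 ± 320 CPM at 60 min (SD, n = 3 each). Of their 2153 reads, 2121 came from mir-4816. The difference between the 2 sums was not tested. Among the first mirtrons described in worms, mir-62 had 6 reads and mir-1019 and mir-1020 had none.

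**Figure D5:**
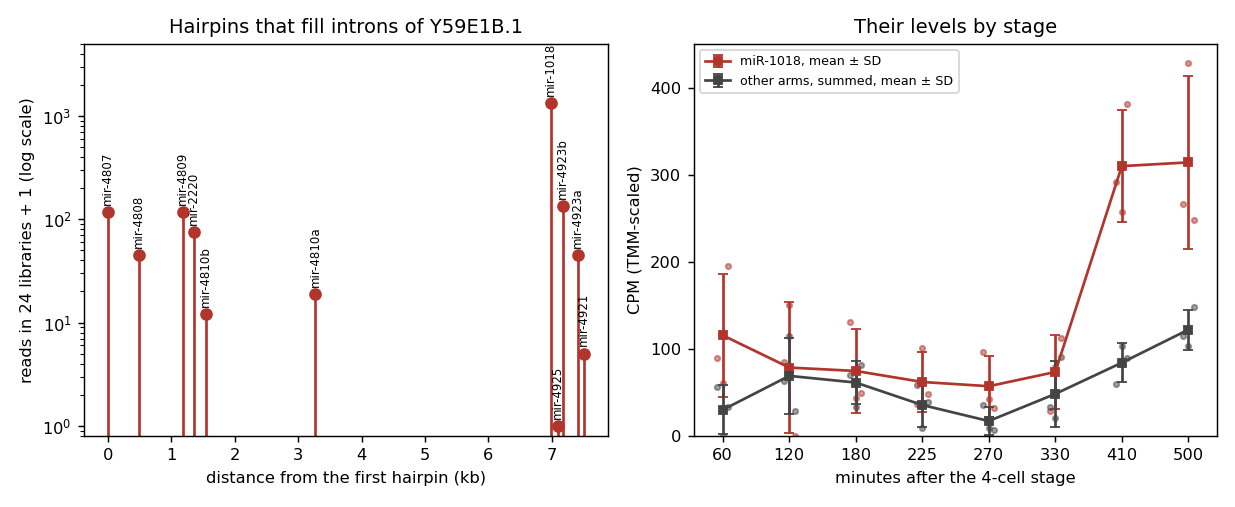
Left, reads over the 24 libraries (log scale, 1 added) of the 11 hairpins that fill introns of Y59E1B.1, by distance from the first; right, level of miR-1018 and of the other arms summed (TMM-scaled CPM) by stage, with libraries as points and mean ± SD as lines and bars. miR-1018 averages 311 CPM at 410 min and 315 CPM at 500 min, and at most 116 CPM before.

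One detected hairpin lies in a gene of the miRNA pathway itself. The single arm miR-1828 comes from an intron of pash-1, the gene of the Drosha partner, at I:10600463-10600525. It had 74 reads in 10 libraries, none of them at 60, 120 or 500 min, and did not reach the filter for a test.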

How the data were processed

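Per the labels' protocols, TRIzol was used to extract total RNA, and the small RNA kit of Illumina TruSeq with 15 cycles of PCR to make the libraries. The deposited values are raw read counts in whole numbers, 434 mature arms by 24 libraries. Bowtie and HTSeq are named in the submitters' processing notes. Versions, genome build, miRNA annotation, use of strand and the handling of reads with several matches are not stated there. With no molecular identifiers described, counting error is a lower bound of the error.

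The analysis used edgeR 4.0.16 in R 4.3.3. The filterByExpr rule (minimum count 10) kept 128 rows. TMM scaling, robust dispersions (common biological coefficient of variation 0.706) and the stage as a factor over all 24 libraries entered the quasi-likelihood F-test. Each test was adjusted by Benjamini-Hochberg over the 128 rows, with a threshold of 0.05. The SE of a log2 fold change was derived from its F value. CPM levels are given as mean ± SD over TMM-scaled libraries. Pooled ratios use the summed reads of the 3 libraries, with floors of 3 counts. The fit was tested on simulated data.

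The alternatives were DESeq2 (version 1.42.0) size factors or total counts as scaling, DESeq2 itself, no filter, a replicate block, and each library left out. Every arm with 100 or more reads, every tested arm and the 3 rows on each side of 100 reads are named. The members and lists were chosen with earlier results of these data known. Within a stage no pair of libraries was close to sampling noise (lowest chi-square per degree of freedom 33.9). Mature sequences are not used here.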

Additional observations from a re-analysis of the deposited data

How the results depend on the processing

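The main fit called 9 high-numbered arms among the stages. The number was 7 to 11 when 1 library was left out, and 16 with no filter, where 122 were tested. These numbers include arms gained as well as arms kept. The calls with no filter included 8 rows of 4 to 105 reads that the filter removes. At 500 min against 60 min, leaving out 1 library gave 4 to 9 calls (1 to 4 higher, 3 to 6 lower), and no filter gave 1 higher. At 270 min against 60 min it gave 2 to 5 calls (1 to 4 higher, 1 to 4 lower). There total counts gave 6 calls, 5 of them higher, DESeq2 gave 5, 4 of them higher, and no filter 1 higher. At 500 min against 270 min it gave 2 to 4 calls (1 to 2 higher, 1 to 2 lower), 2 were higher with DESeq2 or its size factors, and 1 was lower with no filter. The cause was not tested. Over all 128 rows, leaving out 1 library gave 84 to 92 calls among the stages, 64 to 81 at 500 min against 60 min, 45 to 55 at 270 min against 60 min and 29 to 44 at 500 min against 270 min. No called value reversed its direction.

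Same-numbered libraries had correlated deviations in 40 of 84 pairs (over 0.1; range -0.136 to 0.463, median 0.0940). The median for pairs with different numbers was -0.0532. Whether the replicate numbers pair the samples is not known, and the main fit used no replicate block. With a replicate block 8 high-numbered arms were called among the stages, 7 at 500 min against 60 min, and 3 in each of the other contrasts; miR-4937 lost its call (0.0843).

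Without miR-5546-3p the high-numbered rows held 0.197% of counts in the 60 min libraries, 0.195% in those of 120 min, 0.229% in those of 180 min, 0.204% in those of 225 min and 0.159% in those of 330 min. Over a total lacking the 5 most abundant rows, the share of all high-numbered rows was 0.533%, 0.517%, 0.615%, 0.629%, 0.773%, 0.607%, 0.482% and 0.286% from 60 to 500 min. The next ranges are of the share of all high-numbered rows in all counts, with 1 library left out. They were 0.203% to 0.216% at 60 min, 0.242% to 0.264% at 120 min, 0.259% to 0.276% at 180 min and 0.245% to 0.268% at 225 min. Later they were 0.212% to 0.303% at 270 min, 0.188% to 0.199% at 330 min, 0.159% to 0.180% at 410 min and 0.116% to 0.138% at 500 min. A minimum of 10 reads left 68 rows with reads, and one of 3 libraries left 73. Depth limits the low rows: 1 read at 60 min was worth up to 11.2 CPM.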
